A study of Mus musculus with 24 samples.

Results

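The genes described here are 10 macrophage genes of complement and of the clearance of dead cells, chosen by name: C1qa, C1qb, C1qc, Axl, Mertk, Timd4, Cd5l, Adgre1, Mrc1 and Vcam1, out of 55414 genes in the count tables. The series compared spleens of BALB/c mice of the CT-26 model, in which cells of this mouse colon carcinoma line of the same strain were injected at 8 weeks of age, with normal spleens. RNA-seq libraries were given for 4 spleen samples titled control and 4 titled CT-26, next to 16 receptor libraries that hold no value for these genes. The treatment field of the labels contradicts the titles: the control titles go with the injection, and the CT-26 titles with healthy controls. Each field splits the libraries alike, 4 and 4. Sets are named here by title, every difference is titled CT-26 minus titled control, and none is read as tumour against healthy. The labels give tissue as spleen and cells as splenocytes, and give no sex, tumour size or time of collection, nor do they say whether each library came from its own mouse. The p-values therefore measure the spread between these libraries, which may be technical.

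Macrophages of the spleen take up dying cells and old red cells from the blood. C1q, the recognition molecule of the classical complement pathway, is built from chains encoded by C1qa, C1qb and C1qc, and unlike most complement proteins it is made mainly by macrophages; it can coat dying cells. Dying cells also show phosphatidylserine, which Timd4 (TIM-4) binds directly and which the receptor kinases Axl and Mertk bind through the bridging proteins Gas6 and protein S. Cd5l (AIM) is a protein secreted by tissue macrophages, Adgre1 encodes F4/80, the classic surface marker of mouse macrophages, Mrc1 encodes the mannose receptor CD206, and Vcam1 encodes an adhesion molecule of macrophages, stroma and endothelium.

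These genes did not move as a block. Mrc1, Adgre1 and Axl fell by more than 3-fold, Timd4 and C1qc fell less, C1qa, C1qb, Mertk and Vcam1 did not pass the test, and Cd5l was too low to be tested. Thus 5 of 9 members tested were lower and 0 were higher by edgeR's quasi-likelihood test at a Benjamini-Hochberg adjusted p under 0.05 over all 6408 genes tested. Across those genes 42.8% passed, 21.6% as lower and 21.2% as higher. The median log2 fold change was -0.85 over the members tested and -0.02 over all genes tested. Of the 9, 7 exceeded the count filter in all 8 libraries, while Timd4 and Adgre1 did so in all 4 titled control but only 3 titled CT-26 libraries. The sets did not overlap in CPM, counts relative to a library total scaled by edgeR's trimmed mean method (TMM), for 6 members, all lower, while 38.5% of genes tested did not overlap, 18.9% being lower. The members were chosen by name with earlier results of these data known, so these counts describe them and are no test of the group.

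**Figure D1:**
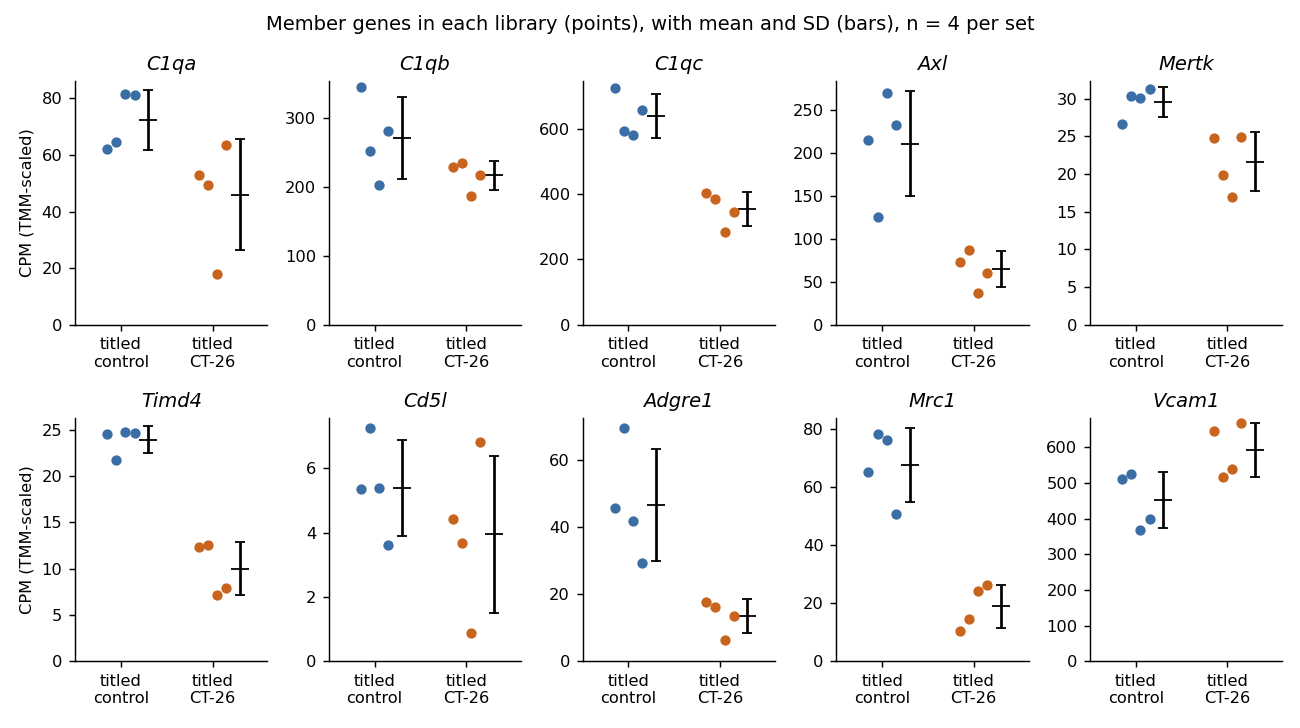
CPM on TMM-scaled totals (vertical axes, each from 0) of the 10 members in each library (points), with the mean and SD of 4 libraries beside them. All titled CT-26 points lie below all titled control points for C1qc, Axl, Mertk, Timd4, Adgre1 and Mrc1, while those of C1qa, C1qb, Cd5l and Vcam1 overlap.

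Depth and scaling bear on all values. The libraries held between 735298 and 1970950 counts, and mitochondrially encoded genes took 54.8% ± 9.15 of counts in the titled control set and 37.5% ± 3.91 in the titled CT-26 set (SD, n = 4 per set). Log2 fold changes were higher by 0.37 (median over genes) when plain library totals replaced TMM. With plain totals C1qc and Timd4 lost their calls, Vcam1 passed as higher, and Mrc1, Axl and Adgre1 stayed lower, with log2 fold changes of -1.50, -1.32 and -1.42. The library titled CT-26 3 had the lowest CPM of its set for 8 of the 10 members, all but Mrc1 and Vcam1. In RNA of mixed spleen cells, fewer cells of a type and less RNA per cell cannot be told apart.

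**Figure D2:**
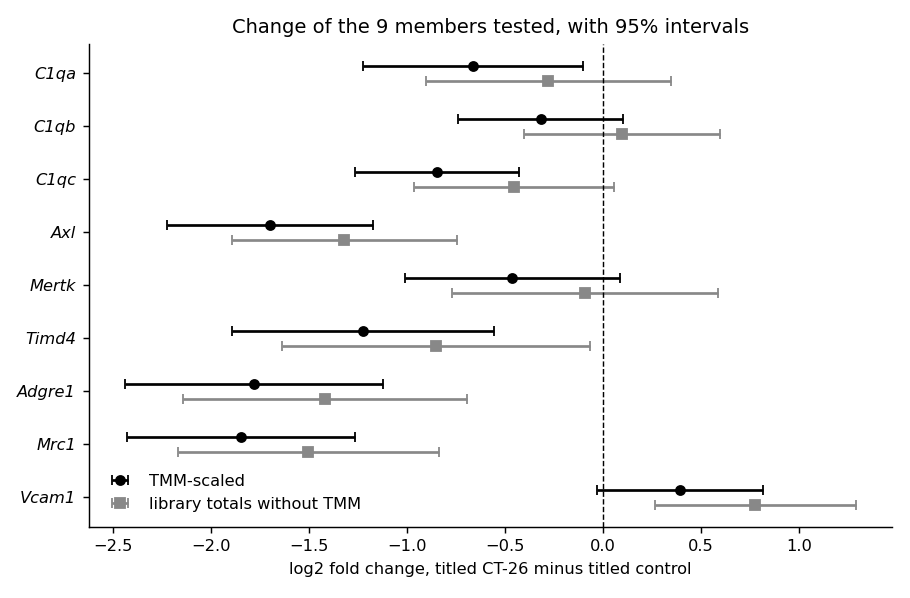
Log2 fold changes of the 9 members tested (horizontal axis) with 95% intervals, on TMM-scaled totals (circles) and on library totals without TMM (squares). Intervals, which are not adjusted for the number of genes, lie below 0 on both scales for Mrc1, Adgre1, Axl and Timd4, and that of Vcam1 lies above 0 only without TMM.

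The C1q chain genes lie side by side on the minus strand of chromosome 4 (GRCm39) between 136607440 and 136626114, a stretch of 18675 bases with 0 other genes of the tables inside it. C1qb (ENSMUSG00000036905, 136607440 to 136613498) encodes the B chain, C1qc (ENSMUSG00000036896, 136617115 to 136620376) the C chain and C1qa (ENSMUSG00000036887, 136623228 to 136626114) the A chain. Sequences upstream of the start are shown for C1qb and C1qc, neighbours of which only C1qc was called lower. A difference in change between them did not pass adjustment (see the ratios below). Each is shown with 250 bases of the RefSeq promoter table on GRCm38.p6, minus strand, 5′ to 3′. Capitals mark GAGGAA or its complement TTCCTC, the core of the site of PU.1, a transcription factor of myeloid and B cells.
C1qb: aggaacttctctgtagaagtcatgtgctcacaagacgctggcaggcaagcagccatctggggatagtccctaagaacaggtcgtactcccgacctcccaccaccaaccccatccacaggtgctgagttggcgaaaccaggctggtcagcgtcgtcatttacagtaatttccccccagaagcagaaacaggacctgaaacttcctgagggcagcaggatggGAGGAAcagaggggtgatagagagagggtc
C1qc: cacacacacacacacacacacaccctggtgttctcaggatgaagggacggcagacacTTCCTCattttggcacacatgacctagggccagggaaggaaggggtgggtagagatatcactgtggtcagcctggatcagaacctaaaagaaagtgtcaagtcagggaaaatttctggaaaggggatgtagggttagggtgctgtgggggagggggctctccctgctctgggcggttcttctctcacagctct
The C1qb stretch is chr4:136886201-136886450 and that of C1qc is chr4:136892915-136893164, both in that build and not in the build of the count tables. Each holds 1 match, whose first base lies 30 bases before the start of C1qb and 193 bases before that of C1qc. The table holds such a stretch for 7 members (C1qb, C1qc, Axl, Cd5l, Mertk, Mrc1 and Timd4), of which 5 have a PU.1 core on either strand, against 23.3% of 32851 promoter windows of the same length. TGCTGA, a core of sites of the MAF factors, or its complement TCAGCA occurred in 3 of the 7 (C1qb, Cd5l and Timd4) and in 16.1% of windows. A match is a description of these letters and not a bound site, and the reference strain is not BALB/c.

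C1qc was the most abundant member per exon length in the titled control set and the C1q chain called lower. It had 725, 594, 581 and 659 CPM in titled control libraries 1 to 4 and 404, 387, 285 and 344 CPM in titled CT-26 libraries 1 to 4. Every titled CT-26 library lay below every titled control library. The log2 fold change was -0.85 ± 0.20 (SE), a 1.80-fold decrease, with an edgeR adjusted p of 0.00122, and the call ended without TMM (log2 fold change -0.46, adjusted p 0.148; over 17 alternatives the adjusted p ran from 3.99e-05 to 0.148).

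C1qb showed a smaller difference that did not pass. Its levels were 345, 251.5, 203 and 280 CPM in the titled control libraries and 229, 233.5, 186 and 217 CPM in the titled CT-26 libraries. The sets overlapped, with only titled CT-26 3 below all titled control libraries. This gave a log2 fold change of -0.32 ± 0.21 (SE), with a 95% interval from -0.74 to 0.10 and an edgeR adjusted p of 0.220, and its sign turned without TMM, at 0.10.

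C1qa stood at the threshold. It had 61.9, 64.5, 81.6 and 81.2 CPM in the titled control set and 53.05, 49.4, 17.9 and 63.6 CPM in the titled CT-26 set. Titled CT-26 3 was far below the rest, and titled CT-26 4 lay inside the titled control range. Its log2 fold change was -0.66 ± 0.27 (SE), with an edgeR adjusted p of 0.0523. It was -0.37 without titled CT-26 3 and -0.84, with an adjusted p of 0.0256, without titled CT-26 4.

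The share of C1qc among the chains was lower in each titled CT-26 library. C1qc made up between 64.1% and 67.1% of the summed CPM of the chains in each titled control library, and from 55.1% to 58.9% in each titled CT-26 library. Within each library the log2 ratio of C1qc to C1qb counts, which does not use the library total, was 1.26 ± 0.18 and 0.71 ± 0.09 (SD, n = 4 per set), and the sets did not overlap. The difference of -0.56 had an exact two-sided permutation p of 0.0286, the smallest that 70 assignments can give, and 0.0571 after adjustment over 12 ratios, which misses 0.05. Ratios with C1qa overlapped, with differences of 0.48 for C1qb over C1qa and -0.08 for C1qc over C1qa (exact permutation p = 0.343 and 0.857).

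Per kilobase of exon, which allows genes to be compared, C1qc and C1qb were the highest members. The level of C1qc was 331 ± 34.4 CPM per kilobase in the titled control set and 184 ± 27.4 in the titled CT-26 set (SD, n = 4 per set). That of C1qb was 248 ± 54.5 and 199 ± 19.7, and that of C1qa was 69.5 ± 10.15 and 44.2 ± 18.9. In each titled control library C1qc exceeded C1qb per kilobase, and in each titled CT-26 library C1qb exceeded C1qc, although the ranges over libraries overlapped in both sets. Vcam1, at 50.9 ± 8.83 and 66.8 ± 8.53 CPM per kilobase, was below C1qa in all 4 titled control libraries and above it in all 4 titled CT-26 libraries, where the ranges overlapped. Axl followed at 41.99 ± 12.2 and 12.8 ± 4.18. Vcam1 and Axl overlapped in the titled control set. At the low end, Adgre1, Timd4, Mrc1 and Mertk had titled control means from 6.83 to 14.4 CPM per kilobase and titled CT-26 means from 2.97 to 4.99, and Cd5l was lowest in both at 2.65 and 1.94. Adgre1 and Timd4, and Timd4 and Mrc1, did not separate in the titled control set, nor did any neighbours from Mertk down to Cd5l in the titled CT-26 set. Lengths are those of all annotated exons, so the level of a gene with exons not used in spleen is understated.

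**Figure D3:**
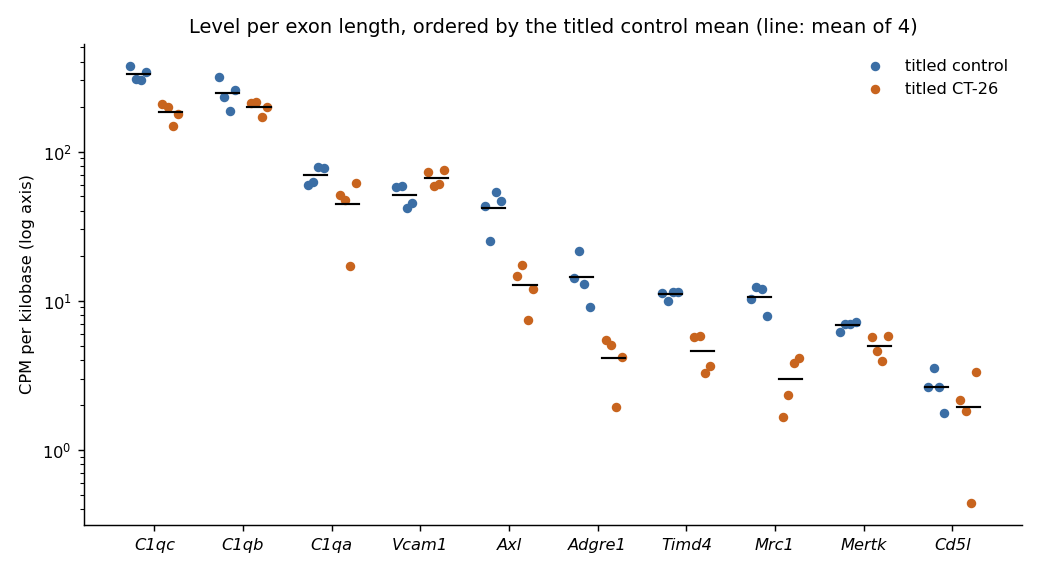
CPM per kilobase of exon (vertical log axis) of the 10 members, ordered by their titled control mean, for each titled control and titled CT-26 library (points), with lines at the mean of 4. C1qc and C1qb are the top members in both sets, and for C1qc, Axl, Mertk, Adgre1, Timd4 and Mrc1 the points of the sets lie apart.

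Among the members that are receptors for dying cells, Axl fell most. Axl (ENSMUSG00000002602, chromosome 7, 25456698 to 25488130, minus strand) had 216, 126, 271 and 233 CPM in the titled control libraries and 73.4, 86.9, 37.55 and 60.2 CPM in the titled CT-26 libraries. The highest titled CT-26 library, number 2, lay below the lowest titled control library, also number 2. The log2 fold change was -1.70 ± 0.26 (SE), a 3.25-fold decrease, with an edgeR adjusted p of 4.83e-06. It was called under each of 17 alternatives, between -1.90 and -1.32. Its upstream stretch, chr7:25788734-25788983 on the minus strand of GRCm38.p6, is shown as that of a member that fell steeply, with the PU.1 core again in capitals, 130 bases before the start.
Axl: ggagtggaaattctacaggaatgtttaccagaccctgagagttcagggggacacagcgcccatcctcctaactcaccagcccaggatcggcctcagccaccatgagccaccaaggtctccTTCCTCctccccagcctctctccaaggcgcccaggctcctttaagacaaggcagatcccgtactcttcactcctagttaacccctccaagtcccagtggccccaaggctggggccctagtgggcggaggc

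Mertk, the kinase of the same family, did not pass. Mertk (ENSMUSG00000014361, chromosome 2, 128540876 to 128644814) had 26.7, 30.4, 30.1 and 31.3 CPM in the titled control set and 24.8, 19.9, 17.0 and 24.98 CPM in the titled CT-26 set. The sets did not overlap, yet by a narrow margin. This was a log2 fold change of -0.46 ± 0.27 (SE), with a 95% interval from -1.01 to 0.09 and an edgeR adjusted p of 0.170. The 147 and 96 counts summed over each set limit the precision.

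Timd4 fell from a level that hardly varied. Timd4 (ENSMUSG00000055546, chromosome 11, 46701627 to 46735159) had 24.6, 21.75, 24.7 and 24.7 CPM in the titled control set and 12.4, 12.5, 7.15 and 7.95 CPM in the titled CT-26 set. All titled CT-26 libraries were lower, and those numbered 3 and 4 were lowest, with 8 and 7 counts. Timd4 thus had a log2 fold change of -1.23 ± 0.33 (SE), a 2.34-fold decrease, with an edgeR adjusted p of 0.00299, and the call ended without TMM (-0.85, adjusted p 0.0734).

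Cd5l, the secreted macrophage protein, was barely counted. Cd5l (ENSMUSG00000015854, chromosome 3, 87265188 to 87278380) was seen 5, 10, 5 and 6 times in titled control libraries 1 to 4 and 5, 5, 1 and 6 times in titled CT-26 libraries 1 to 4, below the filter in all 8. These counts gave 5.39 ± 1.49 and 3.95 ± 2.44 CPM (SD, n = 4 each), with a two-sided exact permutation p of 0.371. The single count in titled CT-26 3 has a 95% exact Poisson interval from 0.0253 to 5.57 counts.

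Of the bridging proteins that Axl and Mertk need, Gas6 was at 4.79 and 4.41 CPM and Pros1, protein S, at 4.45 and 3.88 CPM (titled control and titled CT-26 means). Both fell under the filter and had no test. Tyro3, the remaining kinase of the family, was also under it, at 2.05 and 0.408 CPM. These genes were named after their values were seen.

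Mrc1 had the largest fall of the members by its estimate, which did not separate from those of Adgre1 and Axl. Without titled CT-26 1 the log2 fold change was -1.64 for Mrc1, -1.92 for Adgre1 and -1.75 for Axl. Mrc1 (ENSMUSG00000026712, chromosome 2, 14234203 to 14336868) had 65.1, 78.3, 76.3 and 50.5 CPM in the titled control libraries and 10.6, 14.7, 24.1 and 26.1 CPM in the titled CT-26 libraries. The sets stood well apart, and titled CT-26 3, low for most members, was here above titled CT-26 1 and 2. The log2 fold change was -1.85 ± 0.28 (SE), a 3.60-fold decrease, with an edgeR adjusted p of 4.93e-06, and it was called under each of 17 alternatives, between -2.14 and -1.50. Its upstream stretch, chr2:14229164-14229413 on the plus strand of GRCm38.p6, held 3 PU.1 cores, more than the other members shown, 180, 167 and 35 bases before the start.
Mrc1: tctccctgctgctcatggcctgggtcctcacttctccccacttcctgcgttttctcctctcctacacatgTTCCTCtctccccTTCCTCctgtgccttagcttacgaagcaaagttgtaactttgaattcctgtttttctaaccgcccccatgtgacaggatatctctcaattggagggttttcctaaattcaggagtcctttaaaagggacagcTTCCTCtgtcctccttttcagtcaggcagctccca

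Adgre1 fell by a similar amount from a more variable level. Adgre1 (ENSMUSG00000004730, chromosome 17, 57665691 to 57790527) had 45.9, 69.6, 41.9 and 29.5 CPM in the titled control set and 17.7, 16.2, 6.26 and 13.6 CPM in the titled CT-26 set. All titled CT-26 libraries lay below titled control 4, the lowest of its set. Adgre1 had a log2 fold change of -1.78 ± 0.32 (SE), a 3.44-fold decrease, with an edgeR adjusted p of 4.75e-05. It was called under each of 17 alternatives, between -1.95 and -1.27, the last with the sequencing lane of the file names as a factor.

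Vcam1 went the other way without passing. Vcam1 (ENSMUSG00000027962, chromosome 3, 115903598 to 115923337) had 513, 525, 369.5 and 401 CPM in the titled control set and 647, 518, 538 and 668 CPM in the titled CT-26 set. Titled CT-26 2 lay within the titled control range, and the other 3 above it. The log2 fold change was 0.39 ± 0.21 (SE), with a 95% interval from -0.03 to 0.81 and an edgeR adjusted p of 0.129. Without TMM it passed as higher, at 0.78 with an adjusted p of 0.0114, where 30.2% of genes tested were higher. Beside it, 12 genes of stroma summed to 35.5 to 107 CPM (titled control) and 72.5 to 181 CPM (titled CT-26), with 0 of 3 tested passing. Without TMM all 3 (Col1a1, Col1a2 and Cxcl13) passed as higher, as Vcam1 did, at log2 fold changes of 2.01, 1.08 and 1.08. Of the endothelial genes 1 of 3 tested was lower, Pecam1, an adhesion molecule also found on blood cells, a call lost without TMM. The part of those cells in the level of Vcam1 was not tested.

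Ratios to Adgre1 within a library ask whether a member changed by more or less than this marker. For Axl and Mrc1 no difference from it was detected: log2 ratios to Adgre1 were 2.18 ± 0.94 and 2.26 ± 0.23 for Axl, and 0.57 ± 0.31 and 0.48 ± 1.15 for Mrc1 (titled control and titled CT-26, SD, n = 4 per set; exact permutation p = 0.914 for each), values too spread to show equal change. Vcam1 over Adgre1 was 3.31 ± 0.37 and 5.50 ± 0.60, the largest difference of the 12 ratios, at 2.19. For C1qb the difference was 1.49, for Mertk 1.33, for Cd5l 1.19 and for C1qc 0.94, and in each of these, as for Vcam1, the sets did not overlap (exact two-sided permutation p = 0.0286, adjusted p = 0.0571). C1qa and Timd4 over Adgre1 overlapped, with differences of 1.01 and 0.53 (adjusted permutation p = 0.0980 and 0.300). Of 12 ratios, 0 passed after adjustment, 6 having sets that did not overlap. As 0.0286 is the smallest exact permutation p possible, no ratio could pass adjustment over 12 ratios on its own. The ratios to Adgre1 all share its fall and are not independent. In titled CT-26 3 the ratios rest on 7 counts of Adgre1 (95% exact Poisson interval from 2.81 to 14.4 counts). The ratio of Cd5l, a gene under the count filter, rests on 5, 5, 1 and 6 counts of Cd5l in titled CT-26 libraries 1 to 4.

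**Figure D4:**
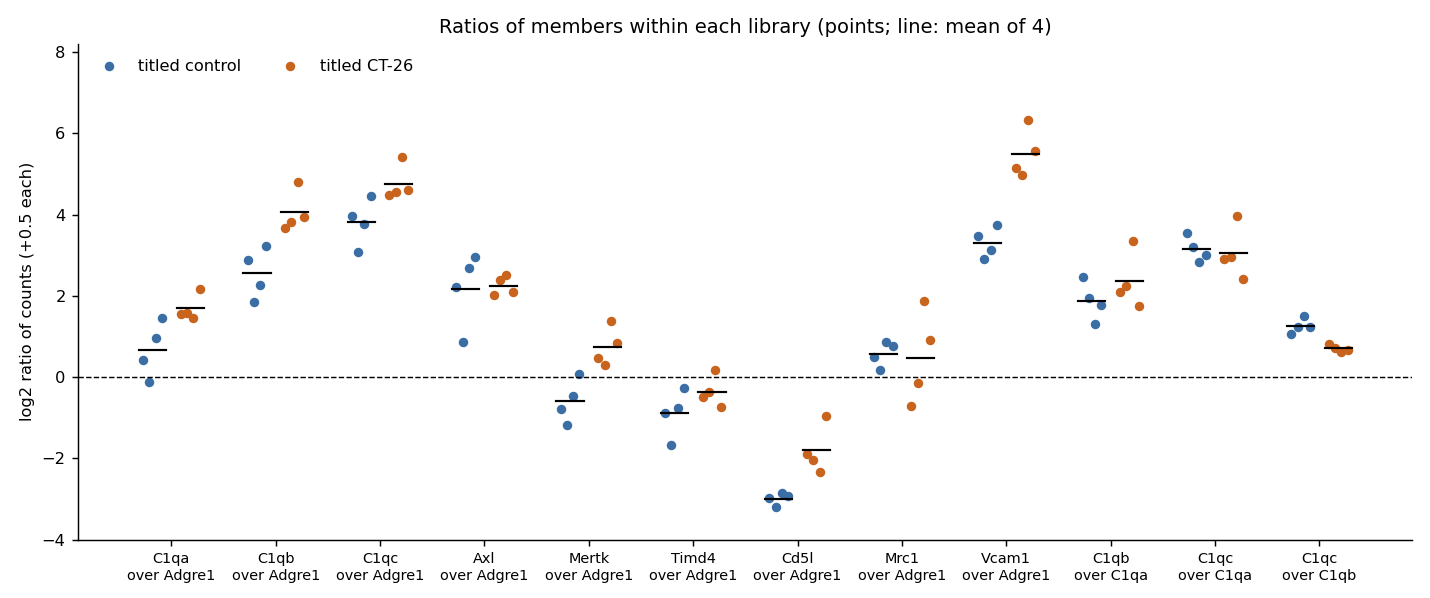
Log2 ratios of counts, with 0.5 added to each, of members within each library (points; line at the mean of 4), by set. Vcam1, C1qb, Mertk, Cd5l and C1qc over Adgre1 are higher in all titled CT-26 libraries, and C1qc over C1qb is lower in all of them.

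Within sequencing lanes, as the file names give them, the 5 lower members kept their sign. For these 5 and for Mertk the sign was fixed in advance, as their sets did not overlap in CPM, so only the sizes inform. Lane 1 held titled control 3 and titled CT-26 2 and 4, and lane 2 held titled control 1 and 4 and titled CT-26 1; the other 2 lanes held 1 library each. The log2 ratio of mean CPM was -1.90 and -2.45 for Mrc1, -1.88 and -1.61 for Axl, -1.49 and -1.09 for Adgre1, -1.27 and -0.99 for Timd4, and -0.67 and -0.78 for C1qc, in lanes 1 and 2. For C1qb it was 0.15 and -0.45, opposite in sign, and for Vcam1 it was 0.68 and 0.50. C1qa had -0.53 and -0.43, and Mertk -0.42 and -0.23.

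The same libraries were then read for other genes of complement and of dead cell clearance. In 11 lists, 93 of 153 genes were tested besides the members, and 35 were lower and 14 higher, 37.6% and 15.05% of those tested. Their median log2 fold change was -0.27. Without TMM 23 were lower and 22 higher, where 11.3% of all genes tested were lower and 30.2% higher. With lane as a factor 30 were lower and 7 higher, and the higher calls over all genes went from 1359 to 999.

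Beyond C1q, most complement components were scarce. Of 20 other components 5 were tested and 2 were lower: C6, a subunit of the membrane attack complex, from 97.0 ± 13.5 to 56.8 ± 14.2 CPM (log2 fold change -0.76), and properdin, Cfp, the stabiliser of the alternative pathway convertase, from 47.5 ± 19.6 to 24.3 ± 6.64 CPM (-0.94). The edgeR adjusted p was 0.00661 for C6 and 0.0102 for Cfp. Both calls ended without TMM, that of C6 also with lane as a factor and that of Cfp without titled control 3. Of 11 receptor genes 6 were tested, 4 lower and 1 higher. Cr2, the complement receptor of B cells and follicular dendritic cells, fell by 4.04 on the log2 scale, and Itgax, a chain of complement receptor 4, by 1.51, from 32.1 ± 9.37 to 11.5 ± 4.28 CPM. Calr, a chaperone that at the cell surface can bind C1q, fell from 324 ± 122 to 146 ± 33.5 CPM (-1.15; edgeR adjusted p at most 0.000438 for these 3 genes). Of the other receptor genes called, Itgam, higher at 1.59, lost its call with lane as a factor, and Itgb2, lower at -0.80, without TMM. Vsig4, the complement receptor of Kupffer cells, had 0 counts in all 8 libraries. Of 4 inhibitors tested 1 was higher, Cd59a, which blocks the membrane attack complex, from 54.2 ± 14.3 to 530 ± 86.5 CPM (3.28 ± 0.24 SE, edgeR adjusted p 2.41e-11). Cd55, which speeds the decay of convertases, did not pass, with 173 ± 38.0 and 149 ± 54.4 CPM.

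Genes that link, expose or protect cells moved both ways. Of 4 bridging genes tested, the phosphatidylserine binder Anxa5 fell from 103 ± 24.25 to 28.3 ± 5.70 CPM (log2 fold change -1.86). The annexin Anxa1 rose from 35.2 ± 14.99 to 227 ± 90.5 CPM and the matrix glycoprotein Thbs1 rose from 0.632 ± 0.853 to 18.8 ± 8.43 CPM (4.398, or 5.52 at most with 1 library left out). Of 10 other receptors tested 3 were higher and 1 lower. Cd14, which binds lipopolysaccharide and dying cells, rose from 7.96 ± 1.30 to 77.6 ± 39.1 CPM (3.29), and the phosphatidylserine receptor Cd300lf from 5.86 ± 1.89 to 19.5 ± 6.15 CPM (1.74), whereas its inhibitory relative Cd300a fell from 19.7 ± 4.35 to 6.11 ± 2.95 CPM (-1.64). Thbs1 and Cd300lf passed the count filter only through the titled CT-26 set, with 4 and 28 counts summed over the titled control set. Of 6 genes of exposure and protection tested 2 were higher and 1 lower. Cd47, the signal that holds off phagocytes, rose from 167 ± 18.8 to 548 ± 120 CPM (1.71). Cd24a, a ligand of the inhibitory receptor Siglec-G and abundant on immature blood cells, rose from 1044 ± 174 to 4163 ± 768 CPM (1.996), and Siglecg itself fell by 1.33 on the log2 scale. The remaining higher receptor gene, the scavenger receptor Cd36, had a log2 fold change of 0.81 and an edgeR adjusted p of 0.00557, a call lost with lane as a factor. For the other genes named as changed here the edgeR adjusted p ran from 5.72e-08 to 0.000922.

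Engulfment and digestion changed in part. Of 13 genes of the engulfment machinery tested 4 were lower and 3 higher, with the autophagy gene Atg5, the Rac activator Dock2 and the GTPase Rac2 at log2 fold changes of -1.20, -1.16 and -0.93, the last losing its call without TMM. Abca1, a lipid transporter and the remaining lower gene, lost its call under 5 alternatives, among them no TMM and no filter, and without titled control 1, titled CT-26 2 or titled CT-26 4. The higher genes Crk, Becn1 and Cybb, at 0.69, 1.73 and 0.57, all lost their calls with lane as a factor. The call of Crk also ended without titled control 3, and that of Cybb under 10 alternatives in all, among them leaving out any of titled control 1, 3 and 4 and any of titled CT-26 3 and 4. Of 8 genes of the lipid response to engulfed cells tested, the cholesterol exporter Abcg1 fell from 71.0 ± 8.61 to 26.5 ± 3.76 CPM (-1.42) and the kinase Sgk1 changed by -1.07, a call lost without TMM and with lane as a factor. Ucp2, a mitochondrial carrier needed for sustained uptake of dying cells, rose from 3591 ± 158 to 6481 ± 1427 CPM (0.85), a call lost with lane as a factor. Of 14 lysosome genes tested 3 were lower and 11 did not pass. Cd68, a membrane protein of macrophage lysosomes, fell from 103 ± 12.7 to 40.4 ± 11.2 CPM (-1.34), and the acid lipase Lipa fell by 0.77 on the log2 scale, a call lost without TMM, without a filter, and without titled control 3 or titled CT-26 2. For the genes named here the edgeR adjusted p ran from 1.83e-05 (Abcg1) to 0.0488 (Cybb).

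**Figure D5:**
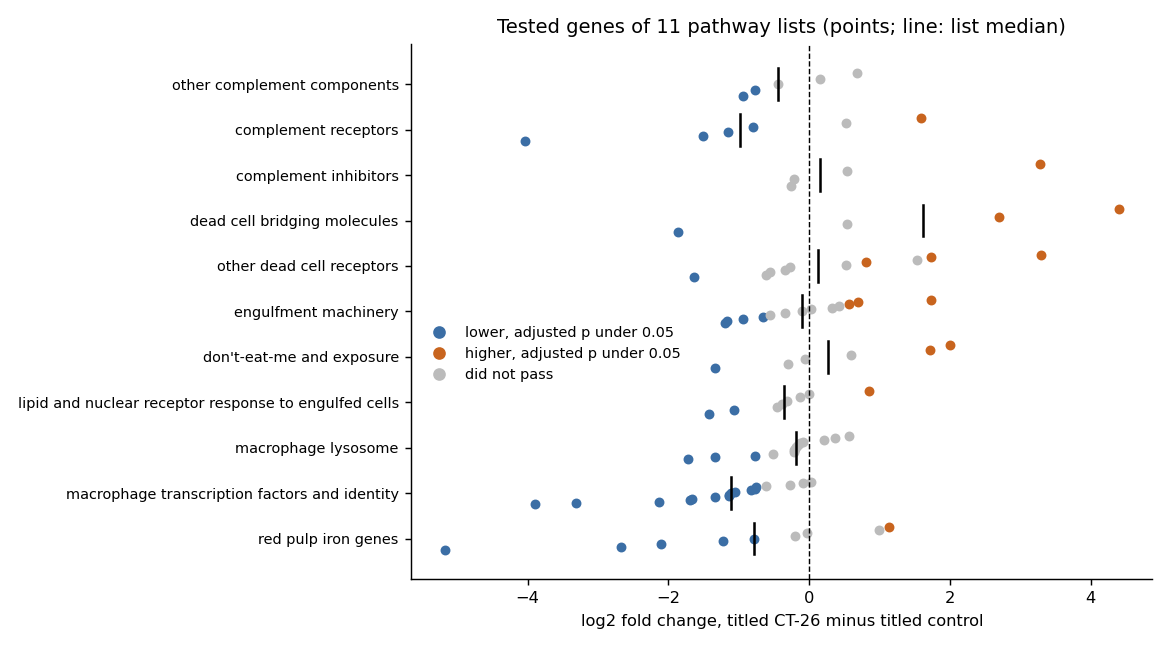
Log2 fold changes (horizontal axis) of the genes tested in each of 11 lists (rows), coloured by call, with a line at the list median. Genes of macrophage identity lie mostly below 0, at a median of -1.11, while lists of bridging, receptor and protective genes spread to both sides.

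Genes of macrophage identity were mostly lower. Of 17 tested 13 were lower and 0 higher, at a median of -1.11 on the log2 scale. Of the 13, 3 (Lyz2, Fcgr3 and Fcer1g) lost their calls without TMM, Fcgr3 and Fcer1g also with lane as a factor, and Fcer1g without titled control 2, titled CT-26 2 or titled CT-26 4. Maf, a transcription factor of tissue macrophages, fell from 48.1 ± 14.7 to 11.1 ± 4.21 CPM (-2.13), Spic, which specifies red pulp macrophages, from 85.9 ± 27.6 to 8.72 ± 3.73 CPM (-3.31), and Treml4, a receptor that binds dead cells, from 45.4 ± 14.6 to 3.14 ± 2.56 CPM (-3.89), each with an edgeR adjusted p of at most 3.06e-06. Treml4 passed the count filter only through the titled control set, with 13 counts summed over the titled CT-26 set. Spi1, which encodes PU.1, did not pass, at 32.0 ± 7.23 and 32.7 ± 8.91 CPM. It was named after its value was seen. Of 9 genes listed for iron in red pulp macrophages 5 were lower and 1 higher. Hpgd, Slc40a1 and Hmox1 were at -5.17, -2.67 and -2.11, steeper than any member. Hpgd, itself not an iron gene, passed the count filter only through the titled control set, with 4 counts summed over the titled CT-26 set. Of the other calls, the higher one, Blvrb, was lost with lane as a factor, Ftl1 was lost without TMM, and Slc11a1 was lost without TMM, with lane as a factor and without titled CT-26 2.

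Other cells of the spleen differed between the sets as well. B cell genes were lower for 11 of 12 tested and T cell genes for 10 of 10, and markers of both lymphocyte types of a spleen were counted in both sets. Genes of NK cells were lower for 4 of 4 tested and of dendritic cells for 3 of 3. Erythroid genes were higher for 10 of 13, neutrophil and precursor genes for 9 of 11 and dividing cell genes for 10 of 10. Neutrophil genes summed to 536 to 1735 CPM (titled control) and 3923 to 9450 CPM (titled CT-26), dividing cell genes to 667 to 960 and 3494 to 5257 CPM, and B cell genes to 2233 to 3484 and 438 to 865 CPM. Monocyte genes were split, with 2 higher and 2 lower of 6 tested. Some genes in these tallies passed the count filter only through the set where they were high, which all but fixed their direction. Camp, Ltf, Mpo, Elane and Prtn3 had 17, 20, 8, 11 and 25 counts summed over the titled control set. Cd8a, Ncr1, Ccr9 and Ms4a4c had 10, 7, 14 and 1 counts summed over the titled CT-26 set. The part of the shifts between these cell types in the levels of the members was not tested.

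The genes whose levels followed the members most closely over the 8 libraries are given by Pearson's r of log2 CPM, a description over libraries that share the split into sets and the scaling. For the mean of the C1q chains these were Pum2 (r = 0.981), Psmb10 (0.977), Arhgap15 (0.969) and Rab22a (0.969), out of 4653 genes compared. For Axl they were Rps27 (0.979), Sash3 (0.968), Mif4gd (0.966) and Mcl1 (0.963), and those for Vcam1 included Tcp11l2 (0.935) and Top2b (0.914), each out of 4655. With the set means taken out, r of these 10 genes lay between 0.802 (Mcl1) and 0.951 (Pum2). They were picked for high r over the same libraries, so this is no separate check.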

How the data were processed

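The 8 RNA tables hold, as deposited, unscaled fragment counts for each gene, made with featureCounts 2.0.1 on GENCODE M29 (a GRCm39 annotation) without a strand option, per the file headers. STAR 2.7.10a, Trimmomatic 0.39 and the builds GRCm38 and GRCm39 are named per the submitters' processing notes. The deposited tables also give exon length per gene (in bases), the only other column used. Symbols were found for 52081 of 55414 genes in a table used for names. Genes overlapping Mertk (2), Mrc1 (1) and Vcam1 (1) had 0 counts, and the other 7 members overlap none.

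Low genes were removed by filterByExpr. The test was edgeR's quasi-likelihood test (robust) on TMM-scaled totals, with Benjamini-Hochberg adjustment over all genes tested. SE is the log2 fold change over the square root of the F statistic. Ratios used counts with 0.5 added and exact two-sided permutation. Members and gene lists were chosen with earlier results of these data known. Named list genes are up to 3 of smallest p that pass in each list. Where fewer than 2 pass, the 2 of highest mean CPM are added. For likeness they are the 4 genes of highest Pearson's r with a mean log2 CPM of at least 4. Outside this rule stand Vsig4, Spi1, Gas6, Pros1, Tyro3, Pecam1, the stroma genes and genes named only for losing calls or for the count filter. Some genes that the rule names are not reported here. On simulated counts of 6408 genes with 200 changed, 4-fold changes were recovered for 99% and 2-fold changes for 45%, and 4 of 148 calls were false. The simulation changed few genes, equally up and down, while 42.8% of genes tested passed in the data. It therefore does not show how calls hold under the shift from scaling. Replicate numbers did not pair: correlations of deviations from the set means of libraries of equal number lay between -0.0914 and 0.0764. No 2 libraries of a set were copies, with a lowest chi-square per degree of freedom of 3.70. Poisson intervals cover counting error only. Alternatives were scaling, filters, totals without mitochondrial genes, DESeq2, limma-voom, lane, replicate number and each library left out. The 16 receptor tables were not used. Tests across genes ran in edgeR 4.0.16, DESeq2 1.42.0 and limma 3.58.1 under R 4.3.3. Tables and permutations used scipy 1.17.1, pandas 2.3.3 and numpy 2.4.6, and figures matplotlib 3.10.9, under Python 3.11.15.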

Additional observations from a re-analysis of the deposited data

Results flagged for a closer look

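Timd4 had 21.7 CPM in titled control 2, below the 24.6 to 24.7 CPM of the other 3 libraries of its set, and its gap to the nearest of them, divided by the range of the set, was above Dixon's 95% limit for sets of 4. This was the only such value among 20 sets of 4 examined, and chance flags about 1 in 20. It rests on 30 counts, and the spread of that set, 1.45 CPM (SD), is small beside the difference from the titled CT-26 set.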

How the results depend on the processing

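Axl, Adgre1 and Mrc1 stayed lower and past the threshold under all 17 alternatives, and C1qc and Timd4 under all but 1. That exception, library totals without TMM, gave C1qc -0.46, Timd4 -0.85, C1qb 0.10 (turned in sign) and Vcam1 0.78 (now passing). It called 3 members lower and 1 higher, 22 pathway genes higher and 23 lower, and 1936 of all genes higher and 725 lower. C1qa passed with limma-voom (-0.79), with totals free of mitochondrial genes and no TMM (-0.77, chosen after seeing the data), and with replicate number as a block (-0.72, adjusted p 0.0419). The replicate block called 1340 genes higher and 1328 lower and changed no other member's call, no pair of equal number correlated above 0.1, and 2 of 8 libraries correlated best with their own number. Exact sign flips by replicate number changed no ratio's call, as 4 pairs allow no p below 0.125. Lane as a factor, where titled control 2 and titled CT-26 3 are fitted by their own lanes, left 7 pathway genes higher and 30 lower. Over all genes it left 999 higher and 1007 lower. Axl over Adgre1 turned to -0.0131 with 2 added to counts. With 1 library left out, C1qa ran from -0.84 to -0.37, Axl over Adgre1 from -0.37 to 0.34, Mrc1 over Adgre1 from -0.55 to 0.31 and C1qc over C1qa from -0.37 to 0.14. The members' order per length was the same by TPM. The cause of these changes was not tested. Low counts limit Cd5l, Timd4, Mertk and Adgre1.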
